A study of Mus musculus with 4 samples.

Results

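The regions described here are stretches of open chromatin at the ends of protein-coding genes that were found in both control libraries and in neither Arid1a-targeted library of B16F10 cells, a mouse melanoma line. They were chosen by joining the peaks of 4 deposited broad peak lists wherever they overlapped by at least 1 bp. Kept were joined regions within 1 kb of either boundary of a protein-coding gene (GRCm38/mm10) that held a peak of each sgScramble list and no peak of an sgArid1a list. This gave 423 regions of 103629 joined regions. They are 3.08% of the 13751 gene-end regions present in both sgScramble lists. Because the same contrast chose them, their number and their strength in the sgScramble lists are descriptions and were not tested.

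Both groups were B16F10 cells grown in vitro, and differed in the guide RNA they carried, which was either scrambled (sgScramble, n = 2) or directed at Arid1a (sgArid1a, n = 2). Each Tn5 reaction of the Omni-ATAC protocol, an assay of transposase access to chromatin, used 50000 cells. The labels name no separate cultures or clones, so the spread between replicates may be technical. How much ARID1A protein was left was not analysed here.

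ARID1A is a large subunit of the BAF (SWI/SNF) complexes, which use ATP to slide or evict nucleosomes, and open sites away from promoters are known to depend on these complexes more than many promoters do. A gene has 2 ends with different roles: the start, where the promoter lies and polymerase is loaded, and the far end, where the transcript is cleaved and polyadenylated and where enhancers of the gene or of its neighbour may also lie. Many promoters sit in CpG islands, which resist methylation and tend to be open in most cell types, while CpG-poor promoters are more often restricted to certain tissues.

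RefSeq promoter windows (GRCm38.p6, 250 bases before to 50 bases after a start) overlapped the missing regions in 54 cases, belonging to 51 genes. The 250 bases before the start are printed 5′ to 3′ on the gene's strand, and capitals mark matches on either strand to the motifs given further on. The first set holds windows that lay wholly inside a peak of both sgScramble lists, so that these exact bases were called open there and not in the sgArid1a lists. They precede a start of 2310022A10Rik (chr7:27560226-27560475, plus strand), Tex52 (chr6:128375260-128375509, plus strand), Gask1a (chr9:121950738-121950987, plus strand) and Kcnh4 (chr11:100759779-100760028, minus strand). A further, overlapping window of Gask1a met the same condition and is not printed.
2310022A10Rik: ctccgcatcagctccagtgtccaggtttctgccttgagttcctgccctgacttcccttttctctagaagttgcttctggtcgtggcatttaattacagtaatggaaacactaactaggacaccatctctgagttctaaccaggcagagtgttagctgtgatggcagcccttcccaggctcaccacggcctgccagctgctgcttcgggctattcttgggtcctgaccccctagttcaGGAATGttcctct
Tex52: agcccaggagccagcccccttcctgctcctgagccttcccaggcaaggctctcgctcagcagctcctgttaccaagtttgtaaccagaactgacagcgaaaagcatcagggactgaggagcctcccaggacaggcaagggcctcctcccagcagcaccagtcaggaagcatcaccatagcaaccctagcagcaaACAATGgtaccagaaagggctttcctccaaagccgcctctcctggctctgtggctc
Gask1a: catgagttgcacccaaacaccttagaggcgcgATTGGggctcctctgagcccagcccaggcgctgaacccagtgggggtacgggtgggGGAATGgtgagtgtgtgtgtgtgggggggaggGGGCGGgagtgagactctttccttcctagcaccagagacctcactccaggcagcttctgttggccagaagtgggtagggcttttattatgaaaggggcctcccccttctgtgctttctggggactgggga
Kcnh4: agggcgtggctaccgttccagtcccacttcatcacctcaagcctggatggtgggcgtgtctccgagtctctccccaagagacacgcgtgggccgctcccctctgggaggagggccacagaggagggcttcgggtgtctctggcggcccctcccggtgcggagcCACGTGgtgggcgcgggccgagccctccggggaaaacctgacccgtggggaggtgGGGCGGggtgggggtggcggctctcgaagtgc

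The second set was picked after the values were seen, to show the starts of better-known genes whose windows were partly covered. Tbx19 (chr1:165160774-165161023, minus strand) encodes a T-box factor of pituitary cells, Psapl1 (chr5:36203771-36204020, plus strand) a prosaposin-like protein, and Scg2 (chr1:79440027-79440276, minus strand) the secretory granule protein secretogranin II.
Tbx19: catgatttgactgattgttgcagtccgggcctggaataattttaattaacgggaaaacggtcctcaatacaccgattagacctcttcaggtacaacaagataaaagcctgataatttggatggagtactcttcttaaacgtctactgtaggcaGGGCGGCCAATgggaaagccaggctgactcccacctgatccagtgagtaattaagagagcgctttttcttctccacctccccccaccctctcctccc
Psapl1: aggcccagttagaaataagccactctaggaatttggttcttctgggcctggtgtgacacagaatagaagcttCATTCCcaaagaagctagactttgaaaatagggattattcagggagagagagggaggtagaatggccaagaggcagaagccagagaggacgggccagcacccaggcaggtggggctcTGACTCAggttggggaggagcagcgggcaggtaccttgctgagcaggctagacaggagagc
Scg2: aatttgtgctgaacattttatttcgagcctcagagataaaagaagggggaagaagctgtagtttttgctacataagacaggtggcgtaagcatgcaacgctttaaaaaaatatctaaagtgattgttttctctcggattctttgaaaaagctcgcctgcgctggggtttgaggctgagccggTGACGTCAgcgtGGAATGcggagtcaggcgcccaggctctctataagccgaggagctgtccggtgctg

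The deposited lists held 82319 and 85613 peaks for sgScramble and 65353 and 71255 for sgArid1a, covering 73.9, 75.8, 53.7 and 62.6 Mb. Gene-end regions numbered 14282 and 14339 in the sgScramble libraries and 13379 and 13831 in the sgArid1a libraries. The lists hold no read counts, so sequencing depth is unknown. A region missing from a list was not called there, and its signal below the calling threshold is not in the lists. In such bulk libraries, fewer cells with an open region and less opening per cell cannot be told apart. The melanocyte label was borne out at 10 of 10 marker genes (among them Mitf, Sox10, Tyr and Mlana), which had a peak within 1 kb of a start in every library. Of the markers of other cell types, none of 3 epithelial, 2 T cell and 2 endothelial genes had one, macrophage genes had 1, 1, 0 and 1 of 3, and fibroblast genes 2, 2, 1 and 1 of 2. Whether other cells had a part in the results was not tested.

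Gene ends were a small part of what was missing. Of all 73056 regions present in both sgScramble lists, 12.9% were in neither sgArid1a list, and of the 59305 distal regions, over 1 kb from any protein-coding gene end, 15.1% were. In the other direction, 58 gene-end regions were in both sgArid1a lists and absent from the sgScramble lists, 0.451% of the 12848 in both sgArid1a lists. Another 467 gene-end regions of the sgScramble lists were missing from sgArid1a replicate 1 alone and 194 from replicate 2 alone, the shorter list missing more. The count was also taken at equal list lengths. With every list reduced to its 65353 strongest peaks by −log10 p, 162 gene-end regions were missing (1.29%), 140 of them among the 423. This cut takes the weakest peaks from the sgScramble lists, where most of the 423 were weak, so a lower count follows from it. The part of list length was not tested.

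The missing regions lay mostly at the far ends of genes rather than at promoters. Strand was known for 17492 of 21887 genes, those with a promoter window. Of the 8163 regions near starts only, 91 were missing, 1.11% (exact 95% interval 0.898% to 1.37%, which covers counting error over regions only, as do all intervals here). Of the 2277 near far ends only, 229 were missing, 10.1% (8.85% to 11.4%), a share 9.02 times as high. Regions within 1 kb of both kinds of end were missing in 12 of 782 cases (1.53%), and regions at ends of genes with no strand in 91 of 2529 (3.60%). Far ends thus made up 54.1% of the missing regions and 13.4% of the 12667 gene-end regions in all 4 lists. Starts made up 21.5% and 62.5%. With 1 library left out, the far-end share was 14.4% (without sgArid1a replicate 1), 21.1% (without sgArid1a replicate 2), 17.1% or 17.3% (without sgScramble replicate 1 or 2), and the start share 1.73%, 2.36%, 1.93% or 1.72%. At equal list lengths the share was 0.432% at starts and 5.28% at far ends.

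**Figure D1:**
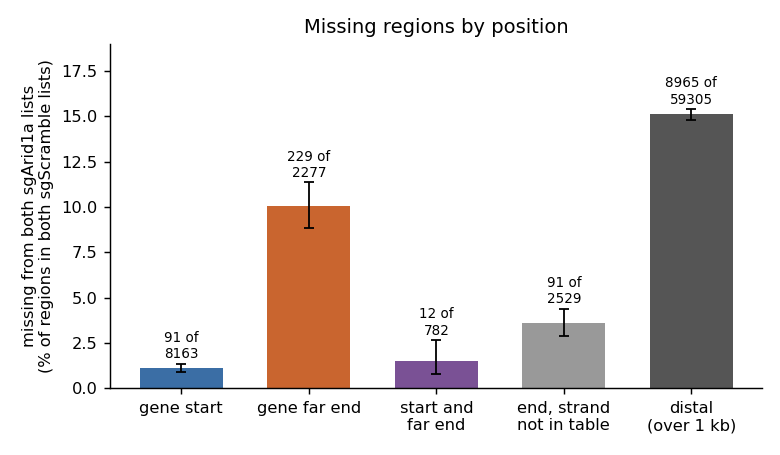
Of the regions found in both controls, the share with no sgArid1a peak (y axis, %), by position (x axis), with exact 95% intervals over regions as error bars. Gene starts stand at 1.11%, far ends at 10.1% and distal regions at 15.1%.

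Position relative to the gene's end differed in the same way. Only 146 of the 423 regions (34.5%) lay over the end itself, compared with 10370 of the 12667 in all 4 lists (81.9%). The 661 gene-end regions missing from 1 sgArid1a list alone were close to the 423, with 261 over an end (39.5%). Of the 423, a further 87 were up to 250 bp away, 58 between 250 and 500 bp and 132 between 500 and 1000 bp. The share missing was 1.35% for regions over an end, 9.33% at up to 250 bp, 7.87% between 250 and 500 bp and 10.1% between 500 and 1000 bp. It was 12.6% between 1000 and 2000 bp, so the share was higher beside an end than over it, and the intervals on either side of the 1 kb limit overlapped. These shares were not split by region length, and a longer region reaches an end more readily. Median length was 512.5 bp for the 423 and 1351.5 bp for gene-end regions in all 4 lists. The part of length was not tested. The last regions inside that limit lay by Ghrl (995 bp), Ghrh (998 bp) and Nudt1 (999 bp), and the first outside by Unc119b (1002 bp), Dusp1 (1003 bp) and Nt5c2 (1004 bp).

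Genes with a missing far end mostly kept an open start. Of the 233 regions whose nearest end was a far end, 190 belonged to genes that kept a region of all 4 lists within 1 kb of a start, and 43 did not. Of the 94 nearest to a start, 20 belonged to genes that kept another region at a start and 74 to genes that kept none. The 423 regions had 422 nearest genes, and Gcgr, the glucagon receptor gene, was the one gene nearest to 2 missing regions, one at each end. Its start region (chr11:120527584-120529071) had folds of 3.73 and 2.80 in sgScramble replicates 1 and 2, and its far-end region (chr11:120538749-120539407) folds of 2.01 and 1.97. In 97 of the 422 genes no region of all 4 lists remained at either end or inside the gene. The same counts for other genes are not given here, so none of these shares is shown to be particular to the missing regions.

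The missing regions were weak and narrow in the control cells. Strength is given as the authors' fold over background (the 7th field of each peak) and as its percentile within the library's own list, from 0 for the weakest to 100 for the strongest. The median of the mean percentile over both sgScramble lists was 17.0 for the missing regions, 28.3 for missing distal regions and 73.2 for gene-end regions in all 4 lists. Median folds were 2.91 and 2.88 in the 2 sgScramble lists, against 4.93 and 4.96 for regions in all 4 lists. Median −log10 q values were 2.75 and 2.83, against 31.8 and 34.3, and 167 of the 423 had a −log10 q under 2 in at least one sgScramble list. Peak length averaged over both lists had a median of 512.5 bp and a range of 245 to 2157 bp, against a median of 1351.5 bp for regions in all 4 lists. The 661 gene-end regions missing from 1 sgArid1a list alone were also weak and narrow, with a median mean percentile of 24.6 and a median length of 651 bp. Of the 423, 43 were above the 50th percentile, 8 above the 75th and 1 above the 90th.

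**Figure D2:**
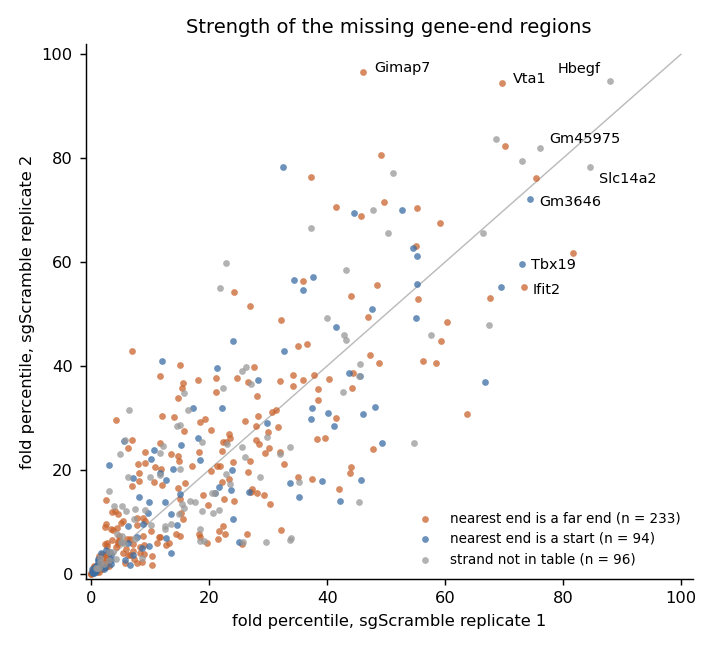
Each point is 1 of the 423 missing regions, with its fold percentile in sgScramble replicate 1 on the x axis and in replicate 2 on the y axis, coloured by the nearest gene end. Most points lie in the lower left, and Hbegf, at 87.9 and 94.95, lies farthest to the upper right.

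The control replicates ranked these weak regions alike. The percentiles in the 2 sgScramble lists differed by a median of 5.73 points, against 3.88 for gene-end regions in all 4 lists. Across the 423 regions Spearman's rho between the 2 lists was 0.836 for percentiles and 0.425 for peak lengths, a description over regions that share their libraries. Strength and length were nearly unrelated among the missing regions (rho −0.0361). A single peak in each sgScramble list made up 420 of the regions. The rule itself excluded overlapping sgArid1a peaks. No sgArid1a peak lay within 1000 bp of 406 regions or within 5000 bp of 189, and the median gap to the nearest one was 4605 bp. For missing distal regions the median gap was 6516 bp.

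Within the weaker percentile bins, far ends were still missing more often than starts, and distal regions more often than far ends. Among regions in the lowest 20 percentile points, 47 of 498 at starts (9.44%), 129 of 622 at far ends (20.7%) and 35.8% of distal regions were missing. Between the 20th and 40th percentile the shares were 3.15%, 15.1% and 26.5%. Above the 80th percentile they were 0 of 3743 starts (exact upper bound 0.0985%), 1 of 267 far ends and 1.26% of distal regions. By length the shares were 0.147% of starts, 3.23% of far ends and 3.55% of distal regions among those over 1000 bp. Among regions of up to 400 bp the shares were 31.2%, 38.9% and 42.9%, and the intervals of starts and far ends overlapped there. Those of far ends and distal regions overlapped in both of these length classes and from 600 to 1000 bp (8.41% and 9.59%). From 400 to 600 bp these intervals did not overlap, with 15.8% of far ends (12.4% to 19.6%) and 23.8% of distal regions (23.1% to 24.5%) missing. In that class 13.0% of starts (8.83% to 18.3%) were missing, and the intervals of starts and far ends overlapped. From 600 to 1000 bp they did not, with 2.77% of starts (1.86% to 3.95%) and 8.41% of far ends (6.56% to 10.6%) missing.

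**Figure D3:**
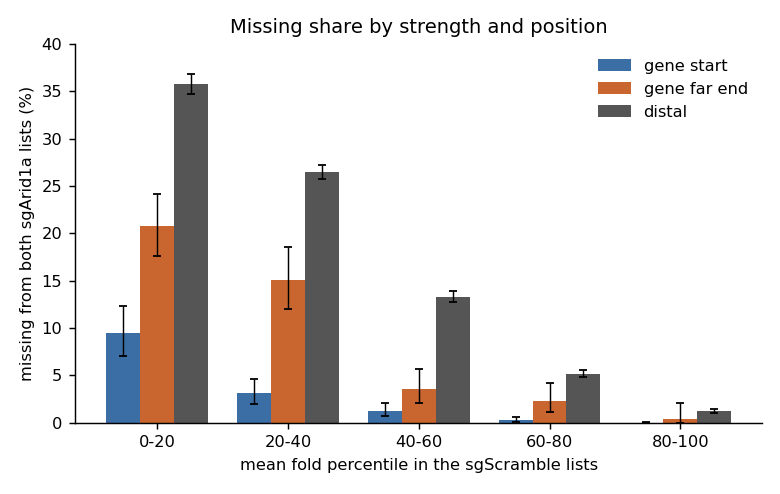
Share of regions missing from both sgArid1a lists (y axis, %) by mean fold percentile in the sgScramble lists (x axis, 5 bins) for starts, far ends and distal regions, with exact 95% intervals over regions. In the weakest bin the shares were 9.44%, 20.7% and 35.8%.

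The promoter windows under missing regions were poor in CpG. Their median ratio of observed to expected CpG was 0.222 and their median GC content 54.3%, against 0.793 and 62% for the 10266 windows under gene-end regions of all 4 lists. The 9200 windows under no region had 0.221 and 48.3%. By a cut of at least 50% GC and a ratio of at least 0.6, 9 of the 54 windows (16.7%) were CpG-rich, compared with 74.98% of those under regions of all 4 lists and 45.1% of all 21263 windows. Counted over regions, 8 of 6011 over CpG-rich windows were missing (0.133%, interval 0.0575% to 0.262%) and 43 of 2259 over CpG-poor windows (1.90%, 1.38% to 2.56%). In the lowest 25 percentile points these shares were 1.83% (7 of 382) and 9.70% (26 of 268), so the order held among weak promoters. Between the 50th and 75th percentile they were 0 of 1551 (exact upper bound 0.238%) and 5 of 544.

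**Figure D4:**
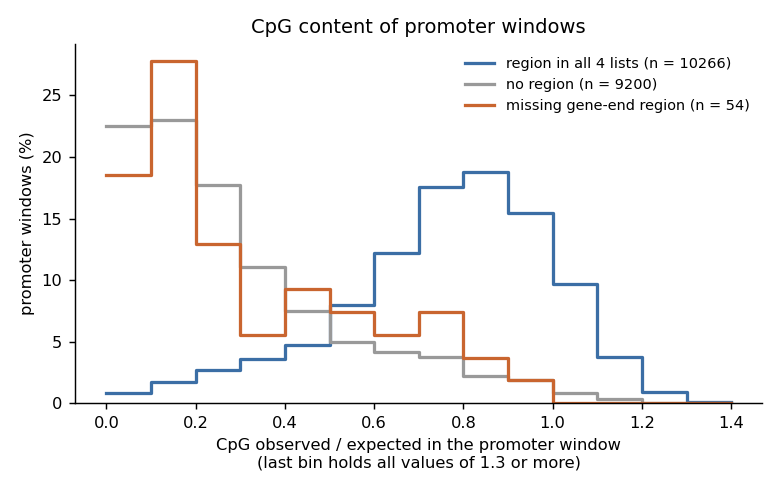
Share of promoter windows (y axis, %) by ratio of observed to expected CpG (x axis, bins of 0.1), for windows under a missing gene-end region, under a region of all 4 lists and under no region. The 54 windows under missing regions peak at low ratios, as do the windows under no region.

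Short motifs were counted in the same 300-base windows on both strands. Only 5 of the 54 windows lay wholly inside a peak of both sgScramble lists, so a counted match may lie outside the open region. Windows of the same gene, which can overlap, were counted separately. AP-1 factors, which include FOS and JUN proteins, were searched as TGANTCA. The cyclic AMP response element was searched as TGACGTCA. The M-box, read by the melanocyte factor MITF, was searched as CATGTGA and the E-box, read by MITF, MYC and related factors, as CACGTG. The GC box, bound by SP and KLF proteins, was searched as GGGCGG. The TATA box was searched as TATAAA and the box bound by NF-Y as CCAAT. The ETS core was searched as CCGGAA, and the site of TEAD factors, the partners of YAP, as GGAATG. SOX factors were searched as ACAATG, and NRF1 by its palindromic site. ETS and TEAD matches can share bases, since the former may run into the latter. The TEAD letters were in 18 of the 54 windows (33.3%), in 11.1% of those under regions of all 4 lists and in 13.6% of all windows. Among CpG-poor windows alone they were in 15 of 45 (33.3%), in 15.1% of those under regions of all 4 lists and in 16.7% of all. The windows of 2310022A10Rik, Gask1a, Psapl1 and Scg2 printed above are examples. AP-1 letters were in 6 windows (11.1%, against 4.06% and 6.99%) and M-box letters in 4 (7.41%, against 1.96% and 3.33%), counts too small to rank. The GC box was in 31.5% of windows under missing regions, 68.9% under regions of all 4 lists and 46.2% of all windows, and so lower than in either. Among CpG-poor windows it was in 28.9% of those under missing regions, 43.3% of those under regions of all 4 lists and 21.0% of all, so its place depended on the set compared. The ETS core was in 1 of 54, 30.6% and 18.7%, and NRF1 letters in 0 of 54, 11.3% and 6.38%. Among CpG-poor windows the ETS core was in 1 of 45, 19.6% of those under regions of all 4 lists and 8.34% of all. NRF1 letters were there in 0 of 45, 2.96% and 0.977%. Without regard to CpG, the CCAAT box was about equally common in each set (37.0%, 38.7% and 38.2%). SOX letters were in 8 of 54 windows (14.8%, against 6.48% and 2339 of 21263) and E-box letters in 6 (11.1%, 10.7% and 7.84%). TATA letters were in 3 (5.56%, 5.70% and 12.6%) and those of the cyclic AMP response element in 1 (1.85%, 3.46% and 2.23%). Among CpG-poor windows SOX letters were in 8 of 45 (17.8%), 9.38% of those under regions of all 4 lists and 15.6% of all. These are matches of letters and not measured binding.

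Hbegf, which encodes heparin-binding EGF-like growth factor, a ligand of the EGF receptor, had the strongest missing region. It lay outside the gene, 169 bp from one boundary (chr18:36504344-36504758). Its folds were 5.85 and 6.50 in sgScramble replicates 1 and 2, at percentiles 87.9 and 94.95, with −log10 q of 19.6 and 24.0 and lengths of 415 and 329 bp. Both controls were high, and the nearest sgArid1a peaks were 2924 and 3185 bp away. Vta1, an endosomal sorting gene, followed with a far-end region inside the gene (chr10:14655487-14656114) at folds of 4.80 and 6.45. Slc14a2, a urea transporter gene, had folds of 5.61 and 5.196 in a region 897 bp outside one boundary (chr18:78144628-78145247). These are the 3 regions above the 80th mean percentile.

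The start of 2310022A10Rik printed above lay in the next region (chr7:27560201-27560723), whose nearest gene boundary is that of Gm45975. Its folds were 5.12 and 5.41, at percentiles 76.1 and 81.9, and the nearest sgArid1a peaks were 6410 and 6537 bp away. Zfp661, a zinc finger gene, Fam155a and Insyn2b followed, with mean percentiles of 76.3, 76.2 and 76.2. The Insyn2b region (chr11:34314670-34315246) was also among the most isolated, since its nearest sgArid1a peaks were 85394 and 85237 bp away. The other promoters printed in full lay in weaker regions, with folds of 2.76 and 3.07 for Tex52, 2.52 and 3.13 for Gask1a and 1.90 and 1.89 for Kcnh4, a potassium channel gene. Scg2 had folds of 3.71 and 3.84, and its nearest sgArid1a peaks were 140940 and 141111 bp away. Gimap7, a GTPase gene of lymphocytes, was the one of the 423 whose controls differed most, with percentiles of 46.1 and 96.6.

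Starts among the 30 strongest regions included that of the predicted gene Gm3646, whose region (chr1:39805347-39805997) began 15 bp away and had folds of 5.04 and 4.87. The Tbx19 region (chr1:165160800-165161581) began 27 bp from the start and had folds of 4.96 and 4.31, lengths of 549 and 782 bp, and no remaining region at a start. Hephl1, a multicopper oxidase gene, had folds of 4.80 and 4.13 at 666 bp inside the start (chr9:15110495-15111504). The Hdac4 region (chr1:92195529-92196511), over a start of this class II histone deacetylase gene, had folds of 4.18 and 4.44, while a region within 1 kb of a downstream Hdac4 start was in all 4 lists. Psapl1 (chr5:36203129-36203897) had folds of 4.20 and 4.37. H2bc14, a histone H2B gene so short that its region (chr13:21722088-21722819) lay within 1 kb of both ends, had folds of 5.43 and 4.40. Of these, Gm3646, Tbx19, Hdac4 and Psapl1 were the 4 members of all 423 that were also called missing in each of 11 other ways of calling that kept all libraries. Those ways include gene starts alone, which kept 103 of the 423, and presence in the upper 50% by fold, which kept 25. Far-end members thus fail the first by position, and weak members the second by strength. Calls also fell away in settings that do not use position. A −log10 q of at least 2 kept 256 of the 423, at least 5 kept 51, and equal list lengths kept 140.

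Several genes of immune signalling were among the named regions. Ifit2, an interferon-induced gene that limits viral translation, was the 1 of 42 gene-end regions of type I interferon genes that was missing. That region lay 439 bp beyond the far end (chr19:34576973-34577520) with folds of 4.98 and 4.13, and a region at the Ifit2 start was in all 4 lists. Tank, whose product binds TRAF proteins upstream of NF-κB and interferon signalling, had a missing region 839 bp inside the gene (chr2:61579396-61579994, folds 4.10 and 4.77) and kept one at its start. Of 24 gene-end regions of cytosolic DNA sensing genes 2 were missing (8.33%), and the 1 of the interferon list is 2.38%, against 3.08% of all gene-end regions. One lay over an end of Ifi204, a DNA sensor gene (chr1:173766896-173767493), with folds of 3.84 and 3.51 and the nearest sgArid1a peaks 145617 and 111968 bp away. The other lay 261 bp inside the far end of Rnaseh2a (chr8:84956871-84957249), the catalytic subunit of the enzyme that removes RNA from RNA-DNA hybrids, with folds of 3.11 and 2.81, and the Rnaseh2a start was kept.

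Chemokine and cytokine genes had 6 of 101 regions missing (5.94%, against 3.08% overall), led by Ccl24 (folds 3.92 and 4.77) and Ccl25 (4.24 and 3.61), both chemokines, and Tnfrsf8, which encodes CD30. MHC and immune receptor genes had 4 of 92 (4.35%), led by Slamf7 and Fcgr4. A start region of Ripk3, the kinase of necroptosis, was missing (chr14:55788380-55788955) with folds of 2.73 and 2.73 and −log10 q of 1.53 and 1.58, close to the lowest value in the lists. Ripk3 was listed among kinases and Tank in no list.

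Genes of the melanocyte lineage had 3 of 42 regions missing (7.14%, against 3.08% of all gene-end regions), all at far ends of genes that kept a start region. The Dct region (chr14:118013028-118014565) lay 238 bp inside the far end of this pigment enzyme gene, with folds of 1.61 and 1.60, at the bottom of both lists. The region by Zeb2, a zinc finger factor of melanocytes, lay 124 bp beyond the far end (chr2:44981832-44983388). It had folds of 2.14 and 2.17, lengths of 1459 and 1557 bp, and sgArid1a peaks 755 and 1206 bp away. Lyst, a lysosomal trafficking gene, had folds of 2.72 and 3.06. The lineage genes' regions in all 4 lists were also weak, with a median percentile of 24.2 against 73.2 for all such gene-end regions.

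BAF and PBAF subunit genes had 1 of 32 regions missing (3.125%, near the 3.08% of all gene-end regions), over the far end of Arid1b (chr17:5347496-5348191), the paralogue whose product takes the place of ARID1A in BAF complexes. Its folds were 2.80 and 2.97, its lengths 625 and 600 bp, and 25 regions inside the gene were in all 4 lists, a start region among those kept. Other chromatin regulators had 8 of 161 missing (4.97%), with Hdac4, Kat6b (folds 4.33 and 3.59) and Kdm7a the strongest. The far-end region of Kat6b, a histone acetyltransferase gene, lay over the end at chr14:21672208-21672851, and its start was kept.

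Growth factor and receptor genes had 8 of 130 missing (6.15%, against 3.08% overall), 2 of which, Tgfbrap1 and Fgfr1op2, are named after such genes without being one. Nodal, a TGF-β family ligand of the early embryo, had a region over its far end (chr10:61424433-61425795) with folds of 4.54 and 3.28, and no region of Nodal remained at either end. Ntrk3, a neurotrophin receptor gene, had folds of 2.90 and 2.97. Pdgfra, the fibroblast marker noted above and a receptor tyrosine kinase gene, had a missing region over its start (chr5:75150747-75151384) that was weak in both controls, with folds of 2.37 and 2.29 and lengths of 627 and 610 bp. Cdkn1a, which encodes the cell cycle inhibitor p21, was the 1 of 143 cell cycle regions missing (0.699%, below the overall share). That region covered the upstream start of the gene (chr17:29090895-29091801) with folds of 1.70 and 1.73, and a region at the downstream start was in all 4 lists.

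Among membrane protein genes, solute carriers had 13 of 255 missing (5.10%), led by Slc14a2, Slc35f2 and Slc26a8. Ion channels had 6 of 124 (4.84%), led by Kcnu1, Kcnk3 and Kcnk15. Neurotransmitter receptors had 3 of 41 (7.32%), by Htr5a, Gabrb2 and Chrng, and olfactory receptors 3 of 19 (15.8%), by Olfr215, Olfr90 and Olfr12. Testis and gamete genes had 9 of 117 (7.69%), among them Tex29, Adam1b and Prss37, and the Tex52 start printed above. Homeobox and other developmental factors had 7 of 173 (4.05%), led by Tbx19, Foxi3 and Foxl1, one of them Islr, matched by its symbol alone. Shares under the 3.08% of all gene-end regions were found for zinc finger genes (4 of 388, 1.03%), G protein coupled receptors (2 of 105), ubiquitin ligases and proteases (8 of 358, 2.23%), ribosome and translation genes (5 of 218, 2.29%) and mitochondrial genes (8 of 288, 2.78%). AP-1 factors had 2 of 20 (10%), by Batf2 and Fosb. Each of 36 lists held at least 1 missing region and 21 of them exceeded the overall share, and 153 of the 423 regions fell in any list. Most shares rest on fewer than 10 missing regions.

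The remaining lists held few members, and their shares are to be read beside the 3.08% of all gene-end regions. Cell surface and matrix genes were near the overall share, with adhesion genes at 5 regions (3.73%) and matrix genes at 4 of 130 (3.08%). They were led by Itgb2, a leukocyte integrin subunit (folds 3.65 and 3.90), by Pcdhb15 and by Adam1b. Axon guidance genes had 3 of 61 (4.92%), by Unc5a, Efnb3 and Sema4b. Genes of synaptic release had 2 of 79 (2.53%), both coding for membrane fusion proteins (Stx1a and Vamp1). Hbegf was the 1 of 9 (11.1%) among EGF receptors and ligands, and Dusp19, a dual-specificity phosphatase gene, the 1 of 86 (1.16%) among genes of MAP kinase feedback. Inside the cell, small GTPases and their regulators had 7 of 281 (2.49%), led by Arhgap32 and Rap1a, cytoskeletal genes 6 of 210 (2.86%) and cilia genes 2 of 107 (1.87%). The axonemal dynein gene Dnah3 was in both of the last lists. RNA processing genes had 7 of 217 (3.23%), lipid and sterol enzymes 7 of 252 (2.78%) and glycosylation enzymes 2 of 117 (1.71%). Other kinases had 4 of 110 (3.64%), phosphatases 3 of 132 (2.27%) and genes of R-loops and DNA damage 2 of 44 (4.55%), which were Rnaseh2a and Cdkn1a.

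By chromosome, the missing share of gene-end regions, 3.08% over all, ran highest on chromosome 6, at 40 of 757 (5.28%, 3.801% to 7.13%). It ran lowest, among chromosomes with over 1 such region, on X, at 6 of 379 (1.58%). Both were picked as extremes, and the interval makes no allowance for that choice. Ends of long noncoding RNA genes lay within 1 kb of 17 of the 423 regions (4.02%), against 12.3% of gene-end regions in all 4 lists. The share was 4.08% for gene-end regions missing from 1 sgArid1a list alone, close to that of the 423. The centres of regions nearest a start fell on both sides of it, 52 upstream and 42 downstream.

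The widest missing regions were mostly weak. Pkhd1l1 led with lengths of 2307 and 2007 bp (chr15:44602038-44604750, folds 3.33 and 3.15), a broad stretch in both controls. Fam83h (1630 and 1665 bp), Zeb2 and Polr2c (1507 and 1382 bp), which encodes an RNA polymerase II subunit, were also broad in both. In Tor1aip1, Slc30a2, Npcd, Ccdc192 and Cpvl the lengths differed between controls, most in Cpvl at 425 and 2742 bp. Over the 10 widest the mean percentile ran from 1.57 for Zeb2 to 43.0 for Ccdc192.

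Chromatin around the missing regions was measured from peaks 1 to 10 kb away on either side, which the selection did not use. Peak length there averaged 1316 and 1332 bp per region in the sgScramble libraries and 995 and 1133 bp in the sgArid1a libraries, so both sgArid1a libraries were lower. The means were 1324 ± 10.9 and 1064 ± 98.2 bp (SD, n = 2 each), a difference of −259.9 bp or −19.6%. An exact two-sided permutation test over libraries gave p = 0.333, the smallest that 2 against 2 allows. Around gene-end regions of all 4 lists the same measure was 1011 ± 10.7 and 793 ± 83.8 bp (SD, n = 2 each), −21.6%, and around missing distal regions −21.9%. The flanks of missing gene ends were thus richer in peaks in every library and differed between the groups by about the same share as flanks elsewhere. Their length over that around kept gene ends was 1.31 and 1.31 in sgScramble and 1.36 and 1.33 in sgArid1a (exact permutation p = 0.333, n = 2 each). With lists of equal length the difference was −96.6 bp, or −8.54%.

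**Figure D5:**
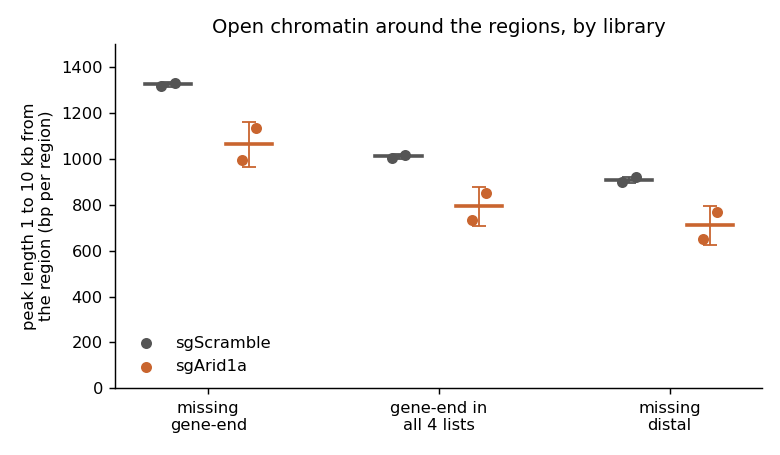
Peak length 1 to 10 kb from a region (y axis, bp per region) in each library, for missing gene-end regions, gene-end regions in all 4 lists and missing distal regions (x axis). Points are libraries, lines are group means and bars are SD (n = 2), and both sgArid1a points lie below both sgScramble points in each set.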

How the data were processed

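Omni-ATAC libraries of B16F10 cells (2 sgScramble, 2 sgArid1a) were deposited as a broad peak list each, called per library. Groups and replicate numbers come from the sample titles, although peak names in the sgScramble lists begin with sgNT. Each peak carries values as deposited by the authors: a score, a ratio to background (fold), and the −log10 of its p-value and q-value. The lowest −log10 q lay between 1.00 and 1.01 in the 4 libraries. STAR 2.5.3a, HOMER, GRCm38 and mm10 are named, without roles, per the submitters' processing notes. The peak caller is not given in the sources used here, nor is any Tn5 shift.

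Peaks were joined, placed against 21887 protein-coding genes of RefSeq GRCm38.p6 and counted with Python 3.11.15, numpy 2.4.6, pandas 2.3.3, SciPy 1.17.1 and matplotlib 3.10.9. Folds and percentiles were used within a list only. A gene without a promoter window has no strand here. The steps were tested on simulated data. Members and gene lists were chosen with earlier results of these data known. Named genes are the 30 strongest by mean fold percentile, the 10 widest, up to 3 strongest per gene list, 3 on each side of the 1 kb limit, genes with more than 1 member and up to 8 promoters wholly in peaks of both controls. Pdgfra was named as a cell type marker, and Scg2 and the promoter sequences of Tbx19 and Psapl1 were added after values were seen. One named gene is not reported here. Gene lists match symbol patterns, so a few members (Islr, Tgfbrap1, Fgfr1op2, Lsmem1, Arl6ip1, Ankrd23, Acap1) fall outside the list's meaning.

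Alternatives were stricter −log10 q, equal list lengths, other overlaps, windows, widths and flanks, and leaving out each library. Confidence intervals are exact binomial (95%).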

Additional observations from a re-analysis of the deposited data

How the results depend on the processing

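The count of 423 regions (3.08%) moved with the calling rule. The share was 3.95% with a −log10 q of at least 2 and 4.22% with at least 5. These settings gave 520 and 498 regions, with 256 and 51 of the 423 among them. The others have a weaker peak in an sgScramble list, and the settings also remove weak sgArid1a peaks. Lists of equal length gave 162 regions (1.29%), presence in the upper 50% by fold 25 (0.278%), and a 50% overlap without merging 574 (4.38%). Gene ends within 500 bp gave 2.34%, within 2.5 kb 864 regions (5.05%), and starts alone 139 (1.36%). Joining within 1 kb (414), peaks of at least 500 bp (364, 125 of them members) and no sgArid1a peak within 500 bp (414) kept the count within 1.5 times. Leaving out 1 library gave 616 (without sgArid1a replicate 1) to 879 (without sgArid1a replicate 2) regions and shares of 4.49% to 6.42%, with 770 and 744 regions without sgScramble replicates 1 and 2, fewer lists being required to match. The median member was called in 6 of 11 settings that kept every library, some of which drop members by position, strength or length alone.

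The ratio of far-end to start shares, main value 9.02, was 8.58 to 12.6 over the alternatives run for it and 8.32 to 10.04 when leaving out a library. These alternatives, and those for CpG, were chosen after seeing the data. The ratio of CpG-poor to CpG-rich shares, main value 14.3, was 42.4 with lists of equal length, where it rests on 15 regions against 1, and 13.9 to 18.2 when leaving out a library. The flank difference was −1416 bp from 1 to 50 kb and −329.3 to −190.5 bp when leaving out a library. With the replicate number as a block (replicate block) it was −259.9 bp, with an exact sign-flip p of 0.5, the smallest 2 pairs allow, and nothing in the labels says that the numbers mark shared cultures. Of the members, 39.5% had a −log10 q under 2 in an sgScramble list, and the part of depth, which is unknown, was not tested.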
